A study of Sus scrofa with 2 samples.

Results

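Genes that carry calcium across an epithelium, and the stanniocalcin genes with the vitamin D receptor, were examined in the endometrium of 2 pregnant Yorkshire pigs at day 18 (YK18). The set was given by name and held 9 genes, namely *TRPV5*, *TRPV6*, *S100G*, *ATP2B1*, *ATP2B4*, *SLC8A1*, *STC1*, *STC2* and *VDR*. A row of the deposited table was found for 6 of the 9, out of 11071 genes with a matched symbol. The pigs were of similar age, came from one commercial herd and were artificially inseminated, and the uterine horns were flushed before the endometrium was sampled. Each pig gave 1 RNA-seq library, called replicate 1 and replicate 2. The libraries form a single condition, so values and their spread between pigs are given and no test between conditions was made.

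Calcium crosses an epithelium in steps. It enters the cell through the channels TRPV5 and TRPV6, is carried through the cytoplasm by calbindin, the product of *S100G*, and leaves through the plasma membrane calcium pumps (*ATP2B1*, *ATP2B4*) and the sodium-calcium exchanger (*SLC8A1*). VDR is the nuclear receptor of active vitamin D and controls genes of this route in the intestine. STC1 and STC2 are secreted glycoproteins, and STC1 was first known in fish as a hormone that lowers calcium uptake. In the pig, calcium is released into the uterine lumen around the time the conceptus signals to the mother, and STC1 is known as a product of the uterine luminal epithelium.

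The libraries held 7466979 reads in replicate 1 and 7023108 in replicate 2, worked out from the steps in which low RPKM values rise. RPKM is by name the number of reads per kilobase, scaled to the reads of the library. The length by which the reads of each row were divided is not given in the sources used here. Of the 6 epithelial markers with a row, 5 were above 0 in both libraries, with *EPCAM* at 5106 and 5128 RPKM in replicate 1 and replicate 2. Of the 4 uterine genes, *PGR*, *ESR1* and *HOXA11* were above 0 in both libraries, and *HOXA10* was listed at 0 in replicate 1 with 1 read in replicate 2. *KRT8* was listed at 0 in both, as were *EEF1A1* and *FTL*, which nearly all cells use, so a gene at 0 is described as listed at 0 and not as absent. Of 9 skeletal muscle genes, 8 were higher in replicate 1, with a summed level of 545.4 RPKM there against 28.5 in replicate 2.

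The entry channel gene *TRPV5* and the pump gene *ATP2B1* stood highest, and *STC1* differed most between the pigs. *S100G* was mid-range, and *STC2* and *VDR* were low. The mean levels ran from 2011 RPKM for *TRPV5* to 1.44 RPKM for *VDR*. All 6 genes were above 0 in both libraries. At least 2-fold apart between the pigs, on the log2(RPKM + 1) scale, were 4 of the 6. *TRPV5* and *STC2* were higher in replicate 2, and *STC1* and *VDR* were higher in replicate 1. Across all 6476 genes with a mean of at least 1 RPKM, 10.7% were at least 2-fold apart, 7.49% higher in replicate 2 and 3.17% higher in replicate 1. The median log2 ratio of replicate 2 to replicate 1 was 0.30 over the 6 genes and 0.07 over all genes.

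**Figure D1:**
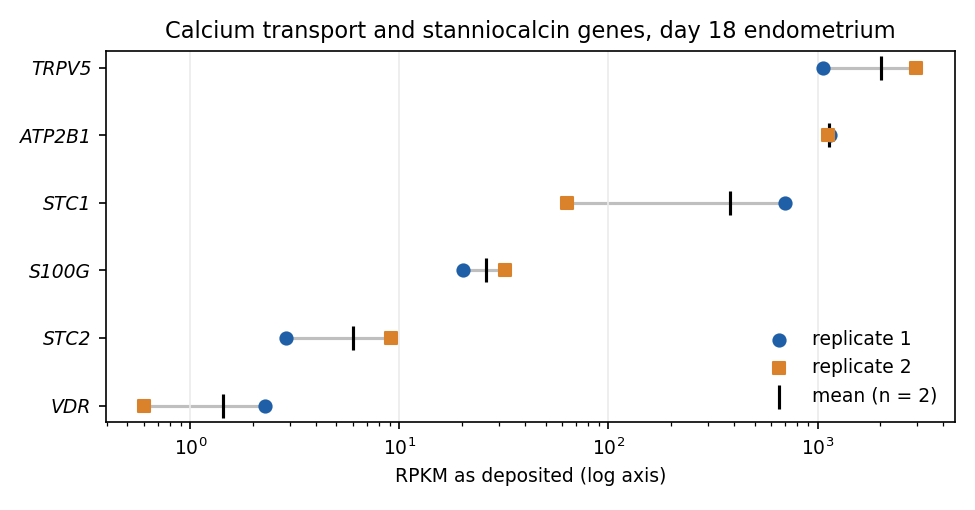
Level of each gene in RPKM as deposited, on a log axis, in replicate 1 (circle) and replicate 2 (square), with the mean of the 2 pigs as a vertical bar. *ATP2B1* lies at 1147 and 1117 RPKM in the 2 libraries, while *STC1* runs from 702 RPKM in replicate 1 down to 63.5 RPKM in replicate 2.

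*TRPV5* encodes a calcium-selective channel of the apical membrane. It measured 1059 RPKM in replicate 1 against 2962 in replicate 2, with a mean of 2011 ± 1346 RPKM (SD, n = 2). The value rested on 1139 and 2996 reads. Read numbers of a gene given here are the smallest that the RPKM allows, and the true numbers may be a whole multiple of them, the same in both libraries. Replicate 2 was 2.80-fold higher, with a 95% exact interval of 2.611 to 2.997. The intervals given here cover counting error alone and leave out variation between pigs and between libraries. Copies made by PCR are not separate molecules, so even the counting error may be understated. The intervals are computed at the smallest read numbers and would be narrower at a multiple. The log2 ratio was 1.48. Of the 514 genes with a mean of at least 1000 RPKM, 5, *TRPV5* included, had a ratio as high. In replicate 1 the level was at percentile 93.2 and in replicate 2 at 98.2 among genes above 0 in both libraries. Levels in whole tissue do not tell apart more cells that express a gene from more RNA per cell.

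The row is that of the predicted transcript XM_003360094.3, which is linked to *TRPV5* when the version number is ignored, and the Sscrofa11.1 annotation holds a later version of it. In that annotation *TRPV5* and *TRPV6* are neighbours whose bounds overlap, and the genes are close paralogs. Of 4 annotated transcripts of *TRPV5*, 1 was matched to a row. No row was matched to *TRPV6*, which has 1 annotated transcript, so the level of *TRPV6* was not analysed here. How the counting divided reads between these genes is not given in the sources used here. The value is therefore that of a transcript named *TRPV5*, in which reads of *TRPV6* cannot be told apart.

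Several cell type markers were also higher in replicate 2. Hemoglobin *HBB* was at 3549 and 8431 RPKM, and *ALAS2*, the other red cell gene with a row, was listed at 0 in both libraries. The 4 leukocyte genes with a row summed to 613 and 994 RPKM. Most of this was *PTPRC*, at 526 and 846 RPKM, and *MS4A1* was higher in replicate 1, at 4.71 and 3.34 RPKM. The 6 genes of glands and uterine secretion summed to 255.3 and 393.7 RPKM, of which *SPP1* was listed at 0 in both libraries. Most of this sum was *ACP5*, at 233 and 356 RPKM, while *SAL1* had 2 and 2 reads and *FOXA2* had 1 and 3. The 6 epithelial genes with a row summed to 11970 and 10845 RPKM. This sum was slightly lower in replicate 2, but 3 of the genes were higher there and 2 were higher in replicate 1. Their median log2 ratio was 0.01. The part of these in the *TRPV5* difference was not tested.

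*S100G* encodes calbindin-D9k, the small cytoplasmic calcium carrier of intestine and uterus. It measured 20.04 RPKM in replicate 1 against 31.96 in replicate 2, with a mean of 26.0 ± 8.43 RPKM (SD, n = 2). These values came from 22 and 33 reads. The ratio of replicate 2 to replicate 1 was 1.59, with a 95% exact interval of 0.902 to 2.87 at these smallest read numbers. *S100G* stood at percentile 44.4 and 48.4, near the middle of the genes above 0. Within a library, the *TRPV5* level was 52.9-fold that of *S100G* in replicate 1 and 92.7-fold in replicate 2. High deposited levels of *TRPV5* and *ATP2B1* were thus listed beside a mid-range level of *S100G* in both pigs.

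*ATP2B1* encodes the plasma membrane calcium pump found in most tissues. The level was nearly equal in the pigs, with 1147 RPKM in replicate 1 against 1117 in replicate 2 and a mean of 1132 ± 21.5 RPKM (SD, n = 2). The reads numbered 1576 and 1443, in the row of 1 of its 9 annotated transcripts. It had the smallest spread of the 6 genes relative to its mean. The ratio of replicate 2 to replicate 1 was 0.973, with a 95% exact interval of 0.906 to 1.05, and it stood at percentile 93.7 and 93.5. In the mean *ATP2B1* was second to *TRPV5*, but the ranges of these 2 genes overlapped. *ATP2B1* was the higher of the pair in replicate 1, and *TRPV5* was 2.65-fold higher than *ATP2B1* in replicate 2. The other pump gene, *ATP2B4*, and the exchanger gene *SLC8A1* have 7 and 27 annotated transcripts, none of which was matched to a row, and they were not analysed here.

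*STC1* differed most. The gene measured 702 RPKM in replicate 1 against 63.5 in replicate 2, with a mean of 383 ± 451 RPKM (SD, n = 2), so the SD was larger than the mean and 1 pig decided the value. It had 1116 reads in replicate 1 and 95 in replicate 2. Replicate 1 was 11.05-fold higher, with a 95% exact interval of 8.95 to 13.8 for counting error. The log2 ratio of replicate 2 to replicate 1 was -3.45, the 11th lowest of 6476 genes. Among genes with a mean of at least 100 RPKM, 2.8% were at least 2-fold apart, and 2 genes, *STC1* included, had a ratio as low. Its percentile was 89.9 in replicate 1 but 56.6 in replicate 2.

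Other markers were higher in the same library as *STC1*. Interferon gamma, *IFNG*, a product of the pig trophectoderm at this stage, measured 682 RPKM in replicate 1 against 89.1 in replicate 2, which is 7.65-fold. The 4 trophectoderm genes with a row summed to 700.6 and 103.4 RPKM, 3 of them were higher in replicate 1, and *ELF5* was listed at 0 in both libraries. *CDX2*, a transcription factor that defines trophectoderm, had 7 and 1 reads. *TFAP2C* had 57 and 43 reads and was at 17.5 and 14.1 RPKM. The skeletal muscle genes, higher in replicate 1 as given above, included *CKM* at 102.7 and 0.723 RPKM, while *TNNT3* was listed at 0 in both libraries and *ACTA1* had 1 and 0 reads. Of 5 stroma genes with a row, 3 were higher in replicate 1, and the list summed to 69452 RPKM there against 44378 in replicate 2. *COL3A1*, a fibrillar collagen gene, made up most of this at 67098 and 42857 RPKM, and *LUM* was at 2122 and 1224 RPKM, while *DCN* and *VIM* were higher in replicate 2. *COL1A2* had 1 and 0 reads. The part of trophectoderm, muscle or stroma RNA in the *STC1* difference was not tested. The steroid receptors differed less, with *PGR* at 531 and 434.2 RPKM and *ESR1* at 188 and 140.1 RPKM.

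*STC2* encodes the second stanniocalcin, which is made in many tissues. It measured 2.86 RPKM in replicate 1 against 9.13 in replicate 2, with a mean of 5.99 ± 4.43 RPKM (SD, n = 2). It had 5 and 15 reads. Replicate 2 was 3.19-fold higher, with a 95% exact interval of 1.10 to 11.2. The direction was opposite to that of *STC1*. *STC1* was 245.2-fold higher than *STC2* in replicate 1 and 6.96-fold higher in replicate 2, so *STC1* was the higher of the stanniocalcins in both pigs.

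*VDR* was the lowest of the 6 genes, from the row of 1 of its 3 annotated transcripts. The level was 2.27 RPKM in replicate 1 against 0.603 in replicate 2, with a mean of 1.44 ± 1.18 RPKM (SD, n = 2). It rested on 4 reads and 1 read, and the ratio of replicate 1 to replicate 2 was 3.76, with a 95% exact interval of 0.372 to 185 at these smallest read numbers. *VDR* stood at percentile 19.0 and 6.11.

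**Figure D2:**
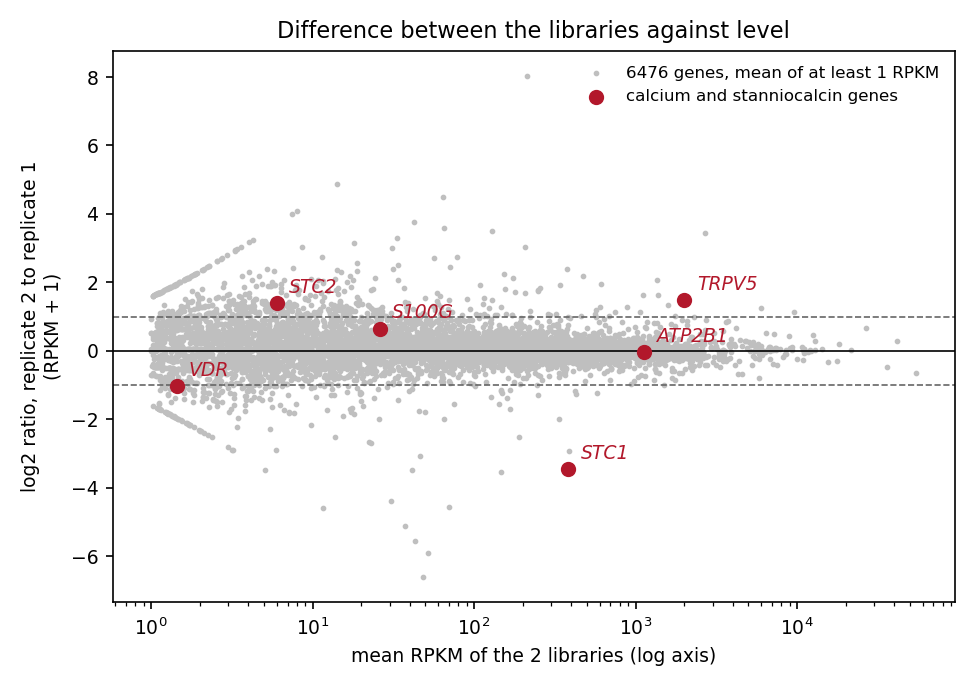
Log2 ratio of replicate 2 to replicate 1 (RPKM + 1) against the mean RPKM of the 2 libraries on a log axis, for 6476 genes (grey) and the 6 calcium and stanniocalcin genes (red), with dashed lines at 2-fold. *STC1*, at -3.45, and *TRPV5*, at 1.48, lie outside most genes of their level, while *VDR*, at -1.03, lies among low genes that scatter widely.

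In order of the mean the genes were *TRPV5*, *ATP2B1*, *STC1*, *S100G*, *STC2* and *VDR*. Apart from *TRPV5* and *ATP2B1*, no neighbours in this order overlapped in their 2 values. The gap was narrow between *STC1* and *S100G* in replicate 2, where *STC1* was 1.99-fold higher, against 35.0-fold in replicate 1. It was also narrow between *STC2* and *VDR* in replicate 1, at 1.26-fold, against 15.1-fold in replicate 2.

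Levels between genes depend on the length by which the reads were divided. The smallest length at which both libraries gave whole reads was 144 nt for *TRPV5*, 184 nt for *ATP2B1*, 213 nt for *STC1*, 147 nt for *S100G*, 234 nt for *STC2* and 236 nt for *VDR*. The length the authors used is this or a whole multiple of it, which may differ between genes. Levels free of the length could therefore not be given, and the order of the genes is that of the deposited RPKM.

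The wider calcium pathway was described with 6 lists that held 101 genes, of which 65 had a row, 46 had reads in each library and 16 were listed at 0 throughout. Of 45 with a mean of at least 1 RPKM, 5 were at least 2-fold apart, or 11.1%, which is near the 10.7% of all genes. The median log2 ratio of the 45 was 0.01. Counts of single lists given below rest on 3 to 13 genes each and are to be read beside this share of all genes.

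Among other genes of calcium entry, 13 of 20 had a row, and none of the 8 with a mean of at least 1 RPKM was 2-fold apart. *TRPM7*, a channel with a kinase domain that passes magnesium and calcium, was at 6255 and 5865 RPKM in replicate 1 and replicate 2. *TRPC1*, a channel subunit of the canonical TRP family, was at 679 and 732 RPKM. *TRPM7* was thus above *TRPV5* in both pigs. *TRPV3* and *TRPV4* were listed at 0 in both libraries.

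Among other calcium-binding proteins, 18 of 24 had a row. Of the 10 with a mean of at least 1 RPKM, 2 were 2-fold higher in replicate 2, against 7.49% of all genes. The chaperones of the endoplasmic reticulum were the highest, with *CALR* at 7326 and 6198 RPKM and *CANX* at 3566 and 3005 RPKM. *S100A2*, an S100 protein of epithelia, was at 3.94 and 19.3 RPKM from 5 and 23 reads, which is 4.89-fold higher in replicate 2 with a 95% exact interval of 1.82 to 16.5. The second was *S100A8*, a protein of neutrophils, at 2.08 and 5.52 RPKM from 2 and 5 reads. The other calbindin, *CALB1*, had 0 reads in replicate 1 and 1 in replicate 2. *S100G* was therefore the calbindin with reads in both libraries, as *CALB2* was listed at 0.

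Among other export genes, 5 of 11 had a row, and none of the 3 with a mean of at least 1 RPKM was 2-fold apart. *BSG*, basigin, which binds the plasma membrane calcium pumps, was at 1074 and 1078 RPKM. Like *ATP2B1*, it differed little between the pigs. *SLC24A2*, a sodium-calcium exchanger that also moves potassium, was at 131 and 130.1 RPKM. *SLC8A3*, a paralog of *SLC8A1*, was listed at 0 in both libraries.

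Among genes that regulate calcium and vitamin D, 16 of 22 had a row. Of the 13 with a mean of at least 1 RPKM, 3 were at least 2-fold apart, against 10.7% of all genes. *CYP24A1*, the enzyme that breaks down active vitamin D, measured 381 RPKM in replicate 1 against 764 in replicate 2, with 737 and 1390 reads. It was 2.01-fold higher in replicate 2, with a 95% exact interval of 1.83 to 2.20, and with the libraries rescaled by the median ratio it was under 2-fold, at a log2 ratio of 0.91. *PTHLH*, parathyroid hormone-related protein, was at 9.42 and 54.0 RPKM from 23 and 124 reads, 5.73-fold higher in replicate 2 with an interval of 3.65 to 9.38. Its receptor gene *PTH1R* was at 308 and 188 RPKM, higher in replicate 1. *CALCR*, the calcitonin receptor gene, was at 19.5 and 5.18 RPKM from 8 and 2 reads, a ratio of replicate 2 to replicate 1 of 0.266 with an interval of 0.0275 to 1.33 at these smallest read numbers. *NCOA1*, a coactivator of nuclear receptors, had the highest mean of the list, at 912 and 701 RPKM, but was below *CYP24A1* in replicate 2.

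The level of *CYP24A1* was thus far above that of *VDR*, at 167.9-fold in replicate 1 and 1267-fold in replicate 2, where the denominator rests on 4 reads and 1 read as the smallest numbers. *CYP27B1*, which makes active vitamin D, was at 8.93 and 10.8 RPKM from 7 and 8 reads. Of the receptor partners of *VDR*, *RXRB* had 6 and 2 reads, *RXRG* was listed at 0 in both libraries and *RXRA* was not analysed here. The calcium-sensing receptor gene *CASR* was listed at 0 in both libraries.

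**Figure D3:**
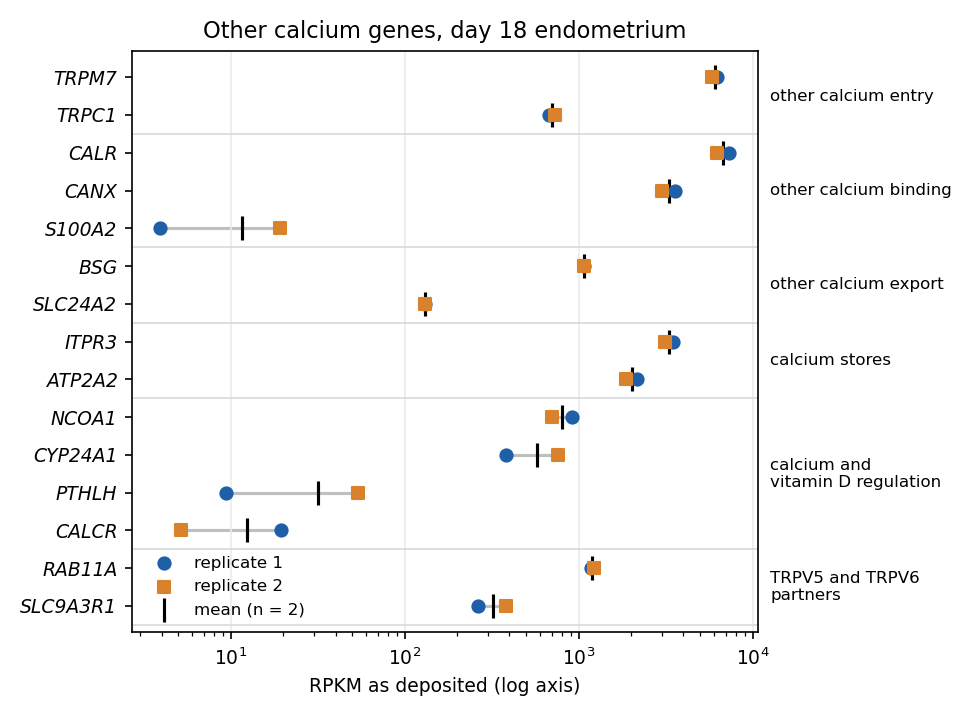
Level in RPKM as deposited, on a log axis, of 15 other calcium genes in replicate 1 (circle) and replicate 2 (square), with the mean as a vertical bar, grouped by list. *CALR*, *TRPM7*, *ITPR3* and *BSG* lie close together in the 2 pigs, while *S100A2*, *PTHLH* and *CYP24A1* are higher in replicate 2 and *CALCR* in replicate 1.

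**Figure D4:**
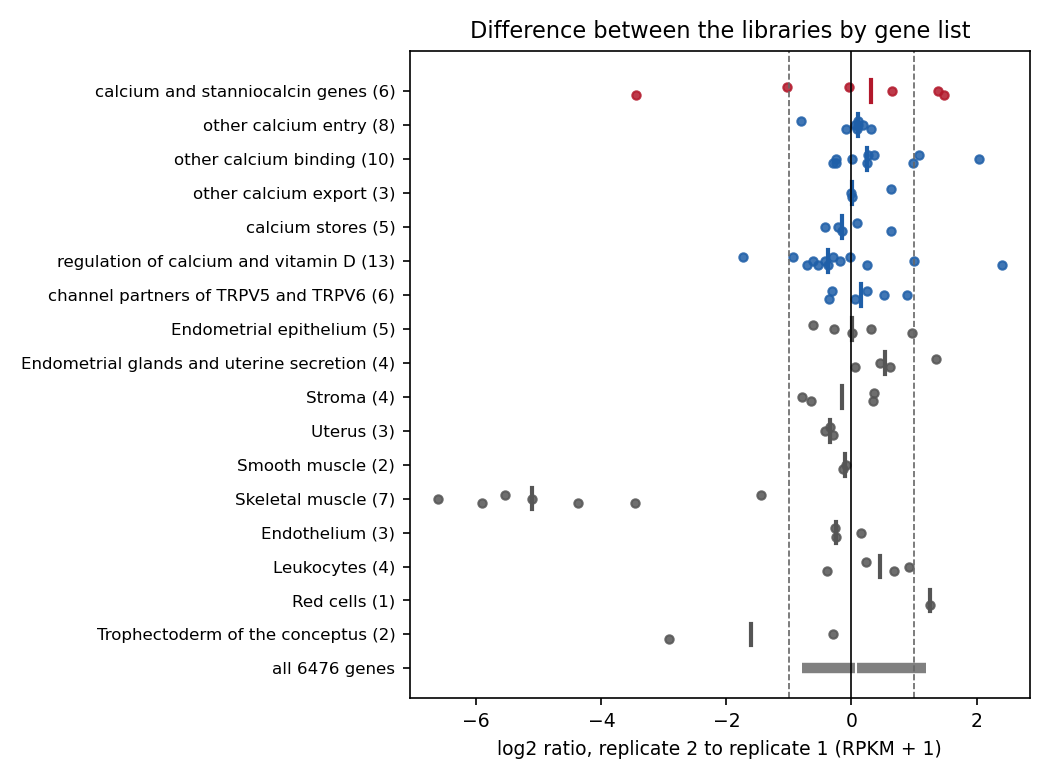
Log2 ratio of replicate 2 to replicate 1 (RPKM + 1) of each gene with a mean of at least 1 RPKM (points) and the median (bar) by list, with the number of genes in brackets, and the range from the 5th to the 95th percentile of all 6476 genes (-0.79 to 1.19) at the bottom. The skeletal muscle genes and *STC1* lie far toward replicate 1, while most other calcium genes lie between the dashed lines at 2-fold.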

How the data were processed

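RNA-seq libraries of endometrium from 2 YK18 pigs were used. Reads had been counted with HTSeq by the authors, who deposited RPKM values for each transcript in 1 column per library. The aligner, the annotation and the genome build are not given in the sources used here, so no coordinates are printed. The deposited RPKM was used unchanged, without a count model. Symbols came from RefSeq accessions of Sscrofa11.1 with the version ignored, which matched 16072 of 38222 mRNA rows (42.0%), and rows of a gene were summed.

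Library totals and reads were recovered from RPKM steps, as the smallest length up to 20000 nt that gave whole reads within 0.0001 in both libraries. This was possible for 100% of 25584 rows above 0, and the true reads may be a whole multiple. When tested on simulated data of 25584 rows, both totals were exact, and 200 of 200 rows changed 4-fold were found as at least 2-fold apart. The changed rows were drawn from levels above those of *STC2* and *VDR*, so genes that low were not covered. The read numbers of the changed rows are not given here, while *S100G* had 22 and 33 reads as the smallest numbers. How often a 4-fold change would be found at the read numbers of the calcium and stanniocalcin genes is therefore not shown by this simulation. Intervals are exact Poisson or Clopper-Pearson intervals at 95%. Ratios used a pseudocount of 1 and a mean of at least 1 RPKM. The fold was a description, with no test.

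The members and lists were chosen with earlier results of these data known. All 9 genes of the set are named. From each further list, the 2 genes with the highest mean are named, and those with a mean of at least 5 RPKM that were at least 2-fold apart. The other list genes named were chosen after their values were seen. Alternatives were pseudocounts, filters, rescaling, accession version, the highest row of a gene, recovered reads and each replicate left out. Python 3.11.15, numpy 2.4.6, pandas 2.3.3, scipy 1.17.1 and matplotlib 3.10.9 were used.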

Additional observations from a re-analysis of the deposited data

How the results depend on the processing

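No paired analysis was possible because there is 1 condition. The count of 4 of 6 genes at least 2-fold apart was 3 of 5 with a mean of at least 5 RPKM, where *VDR* falls out. At that filter 6.97% of all genes were as far apart. The count was 4 of 6 under the other planned pseudocounts, filters and rescalings. Of all genes, 8.03% to 15.1% were as far apart under these. Alternatives chosen after seeing the data gave 3 with at least 20 reads in both libraries together, where 6.22% of all genes were as far apart, and 3 with the accession version kept, where *TRPV5* is not matched. The log2 ratio of *VDR* ran from -1.91 to -1.03 and that of *STC1* from -3.53 to -3.45. None of the 36 alternative ratios of single genes left its counting interval at the smallest read numbers, but many could not. Taking the highest row of a gene repeats the same row, and the ratio of recovered reads is the one the interval was built on. The interval of *VDR* is too wide for any of these alternatives to leave it. The median percentile of the 6 genes, 64.7, was 77.8 among all listed genes, and ran from 52.5 to 67.1 with a replicate left out. The median level, 204.3 RPKM, ran from 47.7 without replicate 1 to 361 without replicate 2, a range set by *STC1*, and was 26.0 with the accession version kept, where *TRPV5* is lost. Rescaling to a sum of 1000000 lowers all levels by construction. Of the single genes, 4 of 29 levels moved by at least 1 SD, all of them under this rescaling. *STC1* and *VDR* were lowered by it too but stayed within 1 SD, because their SD between the pigs is larger than the shift. Under the other alternatives the levels could not move. Leaving out a replicate shifts the mean by less than 1 SD by construction, and the remaining alternatives use the same single row. The count of levels therefore says nothing of stability. Of the percentiles, 6 of 18 moved by at least 1 SD. With 2 pigs the spread is known roughly. The read numbers are the smallest possible, so the depth behind *VDR* and *STC2* is not known exactly.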

Other observations

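Genes of the calcium stores and partners of the TRPV channels are described here for the same pigs. Of 16 store genes, 7 had a row, and none of the 5 with a mean of at least 1 RPKM was 2-fold apart. *ITPR3*, a receptor that releases calcium from the endoplasmic reticulum, measured 3482 RPKM in replicate 1 against 3133 in replicate 2. *ATP2A2*, the pump that refills this store, was at 2163 and 1861 RPKM. Their means stood above that of *ATP2B1*, and both differed less between the pigs than *TRPV5* or *STC1*. *ATP2A1*, the pump of fast skeletal muscle, was listed at 0 in both libraries.

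Of 10 channel partners, 7 had a row, and none of the 6 with a mean of at least 1 RPKM was 2-fold apart. *RAB11A*, which returns TRPV5 and TRPV6 to the membrane, was at 1174 and 1225 RPKM, and *SLC9A3R1*, a scaffold protein, at 265 and 381.6 RPKM. *S100A10*, which joins annexin A2 in binding these channels, was listed at 0 in its 3 rows in both libraries.

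The number of rows of a gene went with being listed at 0. Of 8238 genes with 1 row, 21.1% were listed at 0 in both libraries, and of 2833 genes with more rows, 42.7%. Each of the 6 calcium and stanniocalcin genes with a row had 1 row. The annotation holds 4 transcripts of *TRPV5*, 9 of *ATP2B1* and 3 of *VDR*, so the level of each is that of 1 matched transcript. For *S100G*, *STC1* and *STC2* it holds 1 transcript each.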
